A study of Mus musculus with 4 samples.

Results

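The rod phototransduction cascade was examined through 10 genes in mouse retinal cells sorted before birth. They encode the rod transducin subunits (Gnat1, Gnb1, Gngt1), the rod phosphodiesterase subunits (Pde6a, Pde6b, Pde6g), the rod cyclic nucleotide-gated channel (Cnga1, Cngb1), rod arrestin (Sag) and the rod sodium/calcium-potassium exchanger (Slc24a1). Each gene was represented by 1 array feature (probe set) that the platform annotation gives to it alone, so that 10 of 22431 features, or 10 of the 18920 genes with such a feature, were read. Retinas of BAC-Crx-EGFP mice on a 129Sv/Ev genetic background were taken at the embryonic stage E17.5, and their cells were sorted by green fluorescence into a fraction labelled EGFP positive and one labelled EGFP negative, with 2 arrays each. Both fractions came from animals with the same transgene, a bacterial artificial chromosome in which regulatory sequences of Crx drive the green fluorescent protein EGFP. No mice without the transgene are among the samples, and the labels do not say whether animals were pooled or whether replicates came from separate litters or sorts, so the spread behind every p-value is that of these 4 arrays and may be technical. The comparison asks how precursors that express the Crx reporter differ from the other cells of the same retina, and the study's stated interest is the role of Crx in developing cones.

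In a mature rod, the light-activated visual pigment switches on transducin, a trimeric G protein. Its alpha subunit relieves the inhibition that the gamma subunit of phosphodiesterase places on the catalytic subunits, cyclic GMP falls, and the cation channel of the outer segment closes. Arrestin ends the signal by binding the phosphorylated pigment, and the exchanger removes calcium from the outer segment. Cones use a parallel set of proteins, largely from separate genes, and the name of a rod gene does not exclude its use in cones. In the mouse cones are born before birth, whereas rods are born over a longer period that reaches into the days after birth, and the outer segments that hold this cascade form after birth.

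The sort was checked against genes of photoreceptor precursors. Crx read 3628.7 and 4758.8 on the positive arrays against 292.2 and 370.1 on the negative ones, and all 7 precursor genes on a list of such markers (Crx, Otx2, Neurod1, Prdm1, Rbp3, Thrb, Rxrg) had both positive arrays above both negative ones, as did 22.3% of all features. The markers thus went with the label of the positive cells. This was no independent check, because the list was chosen with earlier results of these data known. Regulatory sequences of Crx also drove the sorted reporter. Nrl, the transcription factor that specifies rods, read 185.9 and 114.9 on the positive arrays against 121.1 and 98.0 on the negative ones, so that the fractions overlapped. Its log2 difference was 0.42 ± 0.25 (SE, n = 2 per fraction, limma adjusted p = 0.462). Array medians were 218.4 to 222.9, and Spearman's correlation over all features was 0.985 between the positive and 0.987 between the negative arrays. Between a positive and a negative array it was 0.954 to 0.980.

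None of the 10 rod cascade genes passed the threshold of an adjusted p under 0.05 in limma, against 0.963% of all features. At an unadjusted p under 0.05, 2 of the 10 were higher in the positive fraction (Sag and Gngt1) and 0 were lower, against 9.34% and 9.83% of all features. Both positive arrays lay above both negative ones for 4 of the 10 (Sag, Gngt1, Gnat1, Pde6g) and below them for 0, against 22.3% and 25.3% of all features. The median log2 difference, positive minus negative, was 0.18 over the 10 genes and -0.01 over all features. The genes fell into a group of 5 with differences from 0.29 to 0.87 and a group of 5 with differences from -0.04 to 0.06.

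**Figure D1:**
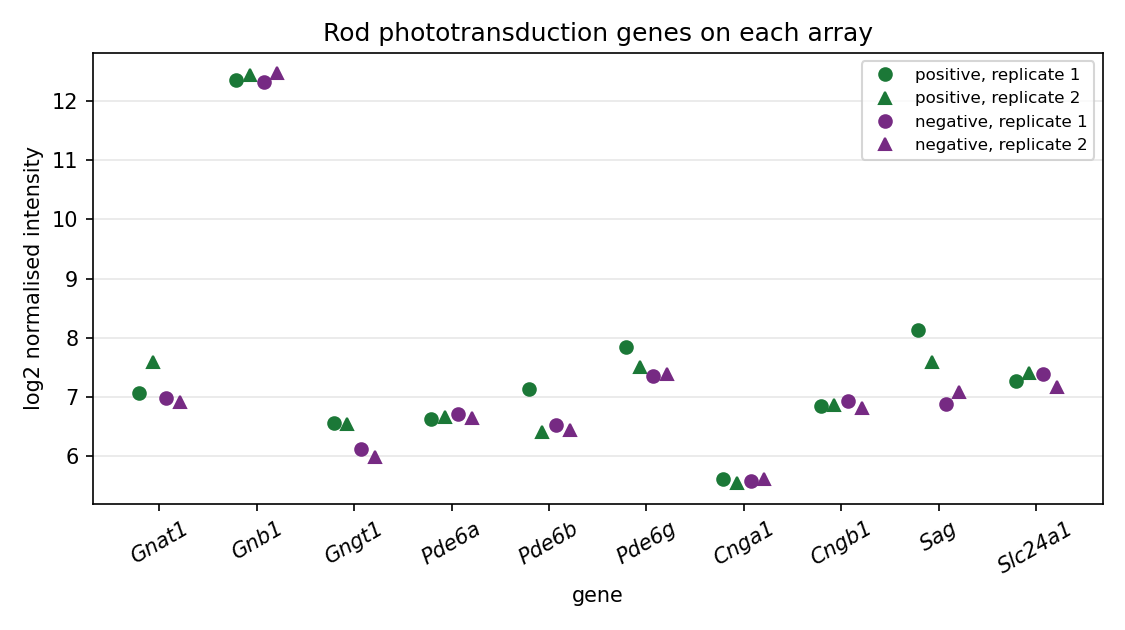
Log2 normalised intensity (y axis) of the 10 rod cascade genes (x axis) on each of the 4 arrays, with 1 point per array. Sag and Gngt1 are separated by fraction on all arrays, Pde6b is high on 1 positive array alone, and Gnb1 is near 12.4 on every array.

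The deposited table used here gives intensities without detection calls, so the position of each gene among all features of an array and a list of genes of other organs served as a reference. Features differ in how strongly their probes bind, so a position ranks no RNA amounts between genes. Apart from Gnb1, the rod genes read between 46.4 and 278.7, from the 4.97 to the 56.9 percentile of an array, and 7 of the 10 lay below the median feature on all 4 arrays. The 21 genes of other organs, best known from tissues outside the eye and including the albumin, growth hormone and protamine genes, read between 23.4 and 217.3. Their highest feature on each array was that of Ckm, the muscle creatine kinase gene, at 192.8 to 217.3, a gene singled out after its values were seen. On both negative arrays and on positive replicate 2, Gnb1 alone among the rod genes read above that feature. On positive replicate 1, Sag at 278.7 and Pde6g at 229.5 did so as well. Differences between the fractions ranged from -0.19 to 0.14 over the genes of other organs. The 5 rod genes of the first group exceeded that range and the 5 of the second lay inside it. The groups were formed from these same differences. Without positive replicate 1, Pde6b (-0.08) and Pde6g (0.13) came within those limits of all 4 arrays, as did Gnat1 (0.11) without positive replicate 2. Sag and Gngt1 stayed above 0.14 whichever array was left out. Calls were rare among features this dim, with 0.0535% called in the lowest quartile of mean intensity, where 4 of the rod genes lay, and 0.428% in the next, where 5 lay, against 1.57% in the next higher and 1.8% in the brightest quartile, where Gnb1 lay. Near the low end of an array a fold change of intensity understates the fold change of RNA.

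**Figure D2:**
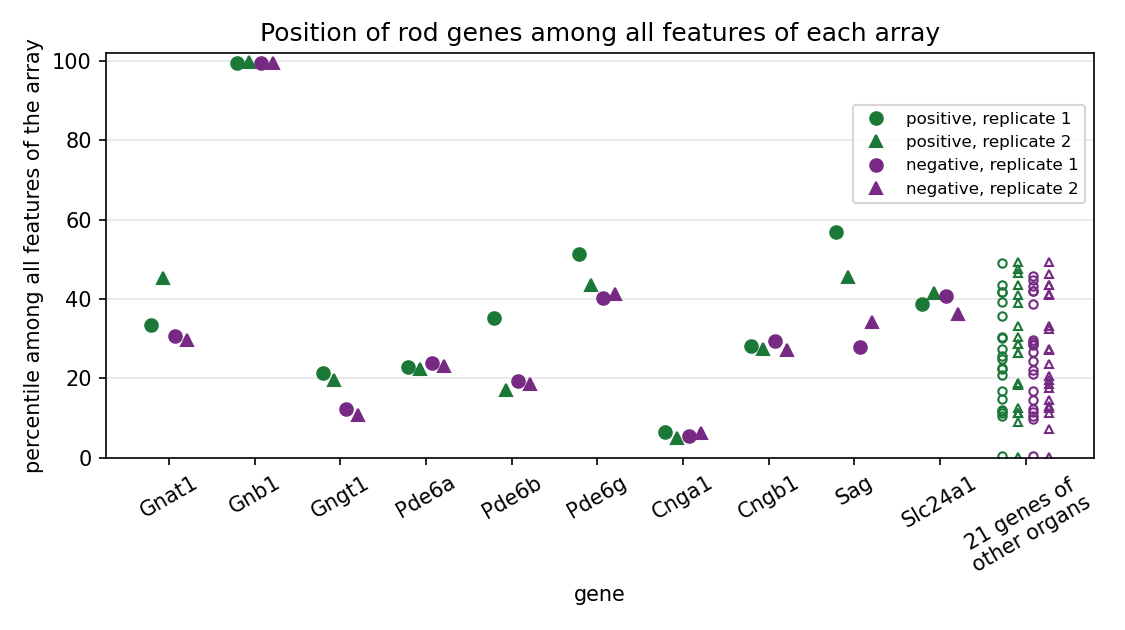
Percentile of each rod cascade gene among the 22431 features of an array (y axis), by gene (x axis), with open symbols for the 21 genes of other organs. Gnb1 stands above the 99 percentile, and the other rod genes lie between the 4.97 and the 56.9 percentile, over much of the span of the genes of other organs.

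Sequences upstream of the rod genes are shown with motifs of Crx and Nrl. Crx, whose regulatory sequences drove the sorted reporter, is a homeodomain factor known to bind the motif TAATCC. The sort read the reporter and not the binding of the Crx protein. Nrl, the rod factor, binds sites that hold TGCTGAC. RefSeq promoter sequences of the assembly GRCm38.p6 were at hand for 7 of the 10 genes. Those of Gnat1, Pde6a and Pde6g were not used here. The 250 bases before the annotated start were searched on both strands, and no match of one motif overlapped a match of the other. TAATCC or its reverse complement GGATTA stood before 4 of the 7 genes, Sag, Gngt1, Cnga1 and Cngb1, against 6.25% of all 32851 promoter windows. TGCTGAC stood before 1 of the 7, Pde6b, against 3.81% of all windows. The 5 sequences with a match follow, 5′ to 3′ on the strand of the gene, with the matched letters in capitals. They are chr1:87803430-87803679 on the plus strand for Sag, chr6:3993758-3994007 on the plus strand for Gngt1, chr5:72642753-72643002 on the minus strand for Cnga1, chr8:95306586-95306835 on the minus strand for Cngb1 and chr5:108388123-108388372 on the plus strand for Pde6b.
Sag: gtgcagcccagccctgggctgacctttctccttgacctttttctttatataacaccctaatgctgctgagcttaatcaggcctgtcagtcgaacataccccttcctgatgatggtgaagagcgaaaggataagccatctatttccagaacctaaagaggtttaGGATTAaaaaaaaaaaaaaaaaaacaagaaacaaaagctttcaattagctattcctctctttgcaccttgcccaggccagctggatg
Gngt1: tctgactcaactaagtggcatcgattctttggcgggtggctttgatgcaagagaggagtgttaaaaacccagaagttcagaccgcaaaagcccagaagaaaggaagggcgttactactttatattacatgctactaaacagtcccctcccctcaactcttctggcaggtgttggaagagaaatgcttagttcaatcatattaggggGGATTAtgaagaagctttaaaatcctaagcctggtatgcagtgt
Cnga1: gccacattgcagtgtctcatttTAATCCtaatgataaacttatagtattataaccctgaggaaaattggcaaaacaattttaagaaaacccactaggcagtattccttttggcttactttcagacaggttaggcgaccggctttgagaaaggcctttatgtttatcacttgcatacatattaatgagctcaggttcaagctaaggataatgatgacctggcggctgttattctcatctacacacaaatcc
Cngb1: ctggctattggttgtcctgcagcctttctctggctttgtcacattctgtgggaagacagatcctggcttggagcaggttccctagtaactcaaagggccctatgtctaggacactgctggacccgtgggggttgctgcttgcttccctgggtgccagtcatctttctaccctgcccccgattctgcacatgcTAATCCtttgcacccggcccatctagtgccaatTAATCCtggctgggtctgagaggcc
Pde6b: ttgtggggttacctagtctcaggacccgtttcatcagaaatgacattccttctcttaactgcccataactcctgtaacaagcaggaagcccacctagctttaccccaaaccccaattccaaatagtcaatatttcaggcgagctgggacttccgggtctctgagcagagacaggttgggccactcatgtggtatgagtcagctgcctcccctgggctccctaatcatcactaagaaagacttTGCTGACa
The match lay 82 to 87 bases before the start in Sag, 39 to 44 in Gngt1 and 223 to 228 in Cnga1. Cngb1 held a match at 53 to 58 and another at 20 to 25 bases before the start. The match of TGCTGAC in Pde6b lay 2 to 8 bases before the start. A match describes letters and not a bound site.

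The 4 genes with TAATCC upstream included those with the largest differences between the fractions and those with almost none. Sag and Gngt1 differed by 0.87 and 0.50 on the log2 scale, and Cnga1 and Cngb1 by -0.02 each.

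Of the transducin subunits, Gngt1, the gamma subunit, was separated by fraction with the least spread. Gngt1 (feature 10536209, Entrez gene 14699) read 94.5 and 92.6 on the positive and 69.6 and 63.3 on the negative arrays. Both positive arrays were higher, by an amount larger than the spread between replicates, at a position from the 10.8 to the 21.4 percentile of an array. As log2 intensity these were 6.55 ± 0.02 and 6.05 ± 0.10 (SD, n = 2), a 1.41-fold difference (log2 0.50 ± 0.11, SE, 95% interval 0.23 to 0.76, limma adjusted p = 0.0993). Its unadjusted p of 0.00471 in limma was the lowest of the 10 genes.

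Gnat1 (feature 10596737, Entrez gene 14685), the rod transducin alpha subunit, read 133.1 and 191.5 on the positive and 126.3 and 120.0 on the negative arrays. The fractions did not overlap, but positive replicate 1 was close to the negative arrays and positive replicate 2 stood apart. The log2 difference was 0.37 ± 0.19 (95% interval -0.11 to 0.86, limma adjusted p = 0.378). Leaving out positive replicate 1 gave 0.64, and leaving out positive replicate 2 gave 0.11.

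Gnb1 (feature 10511069, Entrez gene 14688), the beta subunit, which many cell types use in other G proteins, read 5281.5 and 5579.9 on the positive and 5102.3 and 5669.9 on the negative arrays. The fractions overlapped, with a log2 difference of 0.01 ± 0.11 (95% interval -0.26 to 0.29, limma adjusted p = 0.978). Its fold interval of 0.832 to 1.22 was measured well inside the bright range of the arrays, unlike those of the other 9 genes.

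The catalytic subunits of the rod phosphodiesterase, Pde6a and Pde6b, gave different pictures. Pde6a (feature 10456096, Entrez gene 225600) read 98.7 and 101.0 on the positive and 104.9 and 100.1 on the negative arrays, with a log2 difference of -0.04 ± 0.10 (limma adjusted p = 0.915). Pde6b (feature 10523979, Entrez gene 18587) read 139.9 and 84.3 on the positive and 91.5 and 86.7 on the negative arrays. Positive replicate 1 was high and positive replicate 2 was the lowest of the 4. Its log2 intensity had an SD of 0.52 over the positive and 0.05 over the negative arrays, and the difference was 0.29 ± 0.25 (95% interval -0.34 to 0.91, limma adjusted p = 0.640). With positive replicate 1 left out the difference turned to -0.08, and with positive replicate 2 left out it was 0.65.

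Pde6g (feature 10393793, Entrez gene 18588), the inhibitory gamma subunit, read 229.5 and 181.0 on the positive and 163.6 and 167.2 on the negative arrays. The fractions did not overlap, and positive replicate 1 was the highest. The log2 difference was 0.30 ± 0.14 (95% interval -0.06 to 0.66, limma adjusted p = 0.347), and it was 0.13 without positive replicate 1.

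The subunits of the rod channel showed no separation of the fractions. Cnga1 (feature 10530503, Entrez gene 12788), which forms the pore, read 48.9 and 46.4 on the positive and 47.9 and 49.0 on the negative arrays, between the 4.97 and the 6.46 percentile. Its log2 difference was -0.02 ± 0.10 (limma adjusted p = 0.951). Cngb1 (feature 10580829, Entrez gene 333329), the modulatory subunit, read 114.7 and 116.1 on the positive and 122.1 and 112.0 on the negative arrays, with a difference of -0.02 ± 0.10 (limma adjusted p = 0.965). With each array centred on its median both differences turned to just above 0. The fold intervals were 0.826 to 1.17 for Cnga1 and 0.822 to 1.18 for Cngb1, both for intensities near the low end.

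Sag (feature 10348301, Entrez gene 20215), rod arrestin, had the largest difference of the 10. It read 278.7 and 192.4 on the positive and 117.5 and 135.7 on the negative arrays. The fractions did not overlap, and positive replicate 1 was the highest of all. Sag was 1.83-fold higher in the positive fraction (7.86 ± 0.38 against 6.98 ± 0.15 as log2 intensity, SD, n = 2), a log2 difference of 0.87 ± 0.20 (95% interval 0.37 to 1.38, limma adjusted p = 0.112). The smallest difference that passed the threshold anywhere on the arrays was 0.75 in size, and the median SE over all features was 0.12. Leaving out positive replicate 1 or 2 gave 0.61 or 1.14 for Sag.

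Slc24a1 (feature 10594490, Entrez gene 214111), the exchanger, read 154.0 and 169.9 on the positive and 166.6 and 143.6 on the negative arrays. The fractions overlapped, with a log2 difference of 0.06 ± 0.12 (limma adjusted p = 0.870). For the 5 genes with differences from -0.04 to 0.06 (Slc24a1, Gnb1, Cngb1, Cnga1 and Pde6a), the upper ends of the 95% intervals allowed at most a 1.30-fold higher intensity in the positive fraction.

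The cone counterparts of these genes differed far more on the same arrays. All 9 had both positive arrays above both negative ones (22.3% of all features did), 5 passed the threshold (against 0.82% of all features called higher), and the median log2 difference was 2.63. Cngb3, the cone channel's modulatory subunit, read 1123.2 and 2700.9 against 89.0 and 118.6, a difference of 4.08 ± 0.42 (limma adjusted p = 0.0293). The other called genes were Pde6c, the cone phosphodiesterase (2.97 ± 0.31), Gnb3 (2.86 ± 0.13), Gnat2 (2.82 ± 0.29) and Gngt2 (2.63 ± 0.16), the cone transducin subunits. Cnga3, the pore-forming cone channel subunit (1.11 ± 0.32), Slc24a2, the cone exchanger (1.03 ± 0.41), Arr3, cone arrestin (0.23 ± 0.12), and Pde6h, the cone inhibitory subunit (0.11 ± 0.10), did not pass. With positive replicate 1 left out, Cnga3 (1.57, limma adjusted p = 0.0145) and Slc24a2 (1.65, adjusted p = 0.0128) passed, and with positive replicate 2 left out they differed by 0.65 and 0.42 and did not. Without either negative array, limma called none of the 9 and no feature on the arrays, while 2346 features had an unadjusted p under 0.05 when negative replicate 1 was left out and 3134 when negative replicate 2 was. In those fits the 5 genes had differences between 2.59 and 4.29.

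Rod and cone genes were then set against each other within each array. The log2 ratio of cone to rod intensity was taken for 10 pairs, Pde6c serving for both Pde6a and Pde6b, and compared between the fractions, which avoids setting the level of one probe set against another's. The rod genes other than Gnb1 lay within the range of the genes of other organs on most arrays, so the shifts are those of intensities, not of RNA amounts. The ratio was higher on both positive than on both negative arrays in 8 of the 10 pairs and lower in 1. Of single features, 22.3% and 25.3% were separated in these directions, and the share over arbitrary pairs was not computed. A shift is the cone gene's difference minus the rod gene's, so with a rod difference near 0 it largely repeats the cone result. The shift was 4.10 for Cngb3 over Cngb1, whose ratios were 3.29 and 4.54 on the positive and -0.46 and 0.08 on the negative arrays. It was 3.01 for Pde6c over Pde6a, 2.85 for Gnb3 over Gnb1, 2.68 for Pde6c over Pde6b, 2.45 for Gnat2 over Gnat1 and 2.13 for Gngt2 over Gngt1. It was 1.13 for Cnga3 over Cnga1 and 0.97 for Slc24a2 over Slc24a1. Leaving out positive replicate 1 gave 1.63 and 1.51 for these 2 pairs, and leaving out positive replicate 2 gave 0.63 and 0.42. For Arr3 over Sag the ratio was lower on both positive arrays (-1.89 and -1.31) than on both negative arrays (-0.73 and -1.18), a shift of -0.65 that ranged from -0.93 to -0.36 when 1 array was left out. For Pde6h over Pde6g the ratios overlapped, with a shift of -0.19 that ranged from -0.34 to -0.03. With 2 against 2 arrays an exact two-sided permutation test cannot go below p = 0.333, the value reached by 9 of the 10 pairs (0.370 after Benjamini-Hochberg adjustment over the 10), so these shifts are descriptions.

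**Figure D3:**
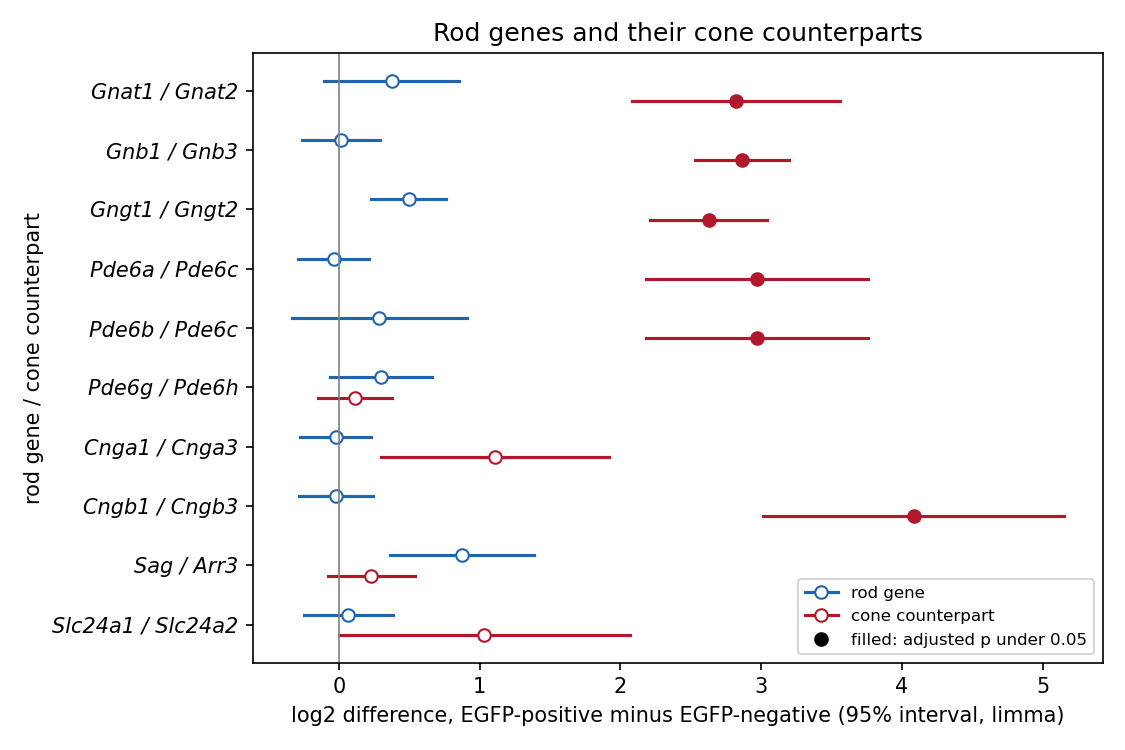
Log2 difference between the fractions (x axis, positive minus negative, with the 95% interval from limma) for each rod gene and its cone counterpart (y axis). Filled points passed an adjusted p under 0.05. The rod genes lie between -0.04 and 0.87, and 5 cone genes lie between 2.63 and 4.08.

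The positive replicates differed from each other in several rod genes. Pde6b, Sag and Pde6g were lower in positive replicate 2 than in replicate 1, with log2 differences of -0.73, -0.53 and -0.34, and Gnat1 was higher by 0.52. The other 6 rod genes differed by -0.08 to 0.14. Over the 10 rod cascade genes the median was -0.0059, with 5 lower and 5 higher in positive replicate 2. In the negative fraction the corresponding differences were -0.08 for Pde6b, 0.21 for Sag, 0.03 for Pde6g and -0.07 for Gnat1. Of 6 further genes of rods, 5 were lower in positive replicate 2, with a median of -0.62. They include Samd7, a transcriptional corepressor of rods, which read 460.3 and 123.5 on the positive and 88.3 and 105.5 on the negative arrays, and Rom1, an outer segment membrane protein shared with cones, with 406.4 and 191.8 against 141.0 and 141.7. Of the 9 cone counterparts, 6 were higher in positive replicate 2, with a median of 0.89. Over all features the median was 0.02. The 2 positive arrays allow no test of this.

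**Figure D4:**
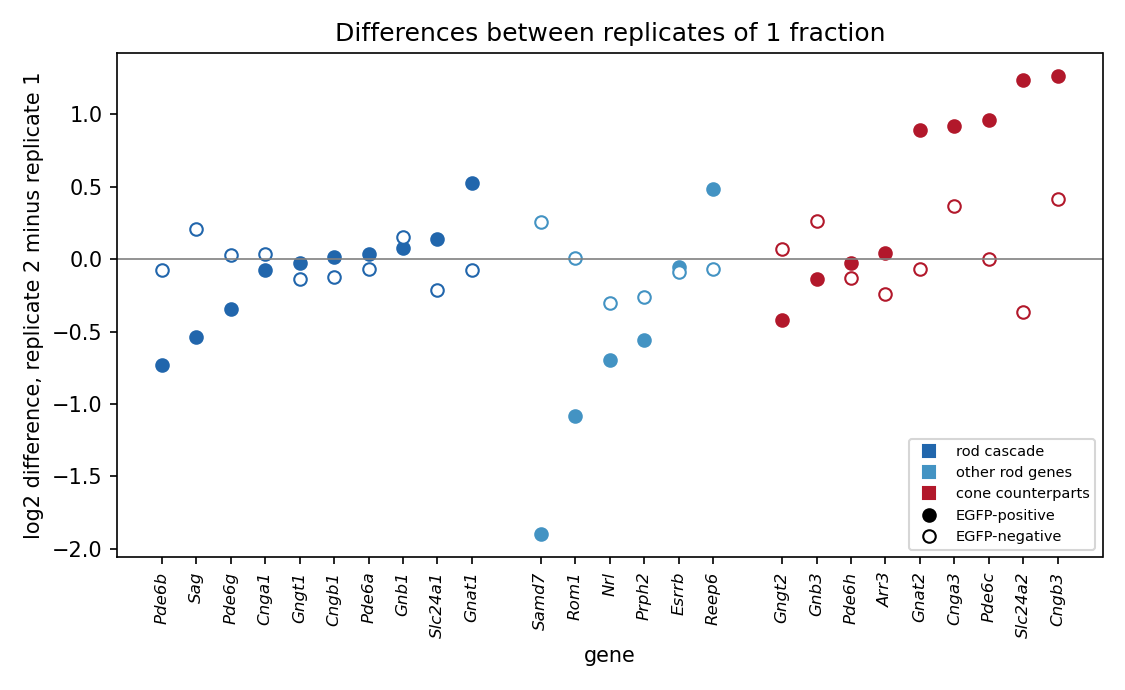
Log2 difference of replicate 2 minus replicate 1 (y axis) within the positive (filled) and the negative fraction (open), by gene (x axis), for the rod cascade, other rod genes and cone counterparts. Pde6b, Sag, Samd7, Rom1 and Nrl are lower and Cngb3, Slc24a2, Pde6c, Cnga3 and Gnat2 higher in positive replicate 2. Among the rod genes Gnat1 and Reep6 are higher, and among the cone counterparts Gngt2 and Gnb3 are lower.

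Markers of other cells differed between the same replicates. Intensities of 11 progenitor genes summed to 27864.8 and 21912.4 on the positive and 37936.4 and 37973.6 on the negative arrays, and 9 of the 11 were lower in positive replicate 2 and 8 of the 11 in negative replicate 2. Those of 13 ganglion cell genes summed to 8559.9 and 12406.8 on the positive and 5742.7 and 12020.6 on the negative arrays, and 10 of the 13 were higher in positive replicate 2 and 12 of the 13 in negative replicate 2. The lowest reading of any feature was 18.9, so an intensity above 0 does not show that a cell type was present. The part of these cells in the rod gene values was not tested. In sorted bulk cells, fewer cells of a type and less RNA per cell cannot be told apart.

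Other parts of the pathway were read on the same fit. Of 12 regulators of phototransduction that rods and cones have in common, 3 passed as higher (against 0.82% of all features) and 9 did not pass, with a median of 0.13. The 3 were Pdc, which binds transducin beta and gamma (2.89 ± 0.13, limma adjusted p = 0.00576), Unc119, which carries lipid-modified transducin alpha (2281.1 and 2009.8 on the positive and 492.2 and 584.9 on the negative arrays, adjusted p = 0.0111), and Rgs9, which speeds the GTPase of transducin (1.51 ± 0.19, adjusted p = 0.0439). Of 10 relatives that are not on the rod and cone lists read here none passed, with a median of 0.04. At an unadjusted p under 0.05, 3 of the 10 were higher and 0 lower, against 9.34% and 9.83% of all features. The largest were Arrb1, a widely expressed arrestin (0.47 ± 0.12, adjusted p = 0.128), and Gnb4, another G protein beta subunit (-0.47 ± 0.19, adjusted p = 0.287). None of the 6 further rod genes passed in limma, 3 were higher at an unadjusted p under 0.05 (9.34% of all features were), and the median was 0.76.

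Markers of other cells of the eye were read as well. Of 11 amacrine and horizontal cell genes Tfap2a (1.12 ± 0.14, limma adjusted p = 0.0429) and Tfap2b (1.06 ± 0.12, adjusted p = 0.0399) were higher, and of 11 progenitor genes Sox2 was lower (-1.36 ± 0.10, adjusted p = 0.0119). Of all features, 0.82% were called higher and 0.143% lower. At an unadjusted p under 0.05, 7 of the 11 amacrine and horizontal cell genes were higher and 7 of the 11 progenitor genes lower, against 9.34% and 9.83% of all features. None of 13 ganglion cell, 8 bipolar cell, 6 pigment epithelium, 5 endothelium and 4 microglia genes passed in limma, against 0.963% of all features. At a share that low, most lists this short would hold no call. At an unadjusted p under 0.05, 1, 3, 1, 0 and 0 of them were higher and none lower, against the same 9.34% and 9.83%. Among bipolar cell genes, Gnao1, a G protein alpha subunit also used in other neurons (0.81 ± 0.13, limma adjusted p = 0.0673), and Cabp5, a calcium-binding protein (0.71 ± 0.15, adjusted p = 0.0991), had the largest differences. Of the 8 bipolar cell genes, 4 had differences above 0 and 4 below, with a median of 0.02.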

How the data were processed

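RNA of 2 EGFP-positive and 2 EGFP-negative samples, 100 ng each per the labels' protocols, was measured on Affymetrix whole-transcript arrays. The deposited values are intensities normalised by the authors with RMA, per the submitters' processing notes, which also name the build mm8. The sources used here give no version of RMA and no filter. The linear scale was inferred from the range of 18.9 to 36625.2, and values were turned into log2 with nothing added.

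Features with exactly 1 gene symbol named genes (20176 of 22431; 412 had several and 1843 none), and each gene took its feature with the highest mean. The fit over all features used R 4.3.3 and limma 3.58.1 (lmFit, eBayes without a trend, no replicate term), with Benjamini-Hochberg adjustment over all of them and a threshold of 0.05. The script was tested on simulated data. Precision is limited by having 4 arrays. The members and lists were chosen with earlier results of these data known. The text names the rod genes, their cone counterparts, Crx, Nrl and Otx2, and of each other list up to 4 called genes with the largest difference or, without calls, the 2 largest. Others are given as chosen after their values were seen. Guca1b, Nr2e3, Pou4f2, Ins1, Amy2b and Klk1, also on the lists, were not analysed here. Because the RefSeq assembly differs from mm8, coordinates are given for the RefSeq promoter sequences alone. Their orientation was checked by the position of TATAAA.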

Additional observations from a re-analysis of the deposited data

How the results depend on the processing

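The count of 0 called rod genes held with a variance trend, a robust trend, median centring, quantile normalisation, a filter that dropped the dimmest 25% of features, the mean of features per gene and without any single array. The replicate block was the exception: with the replicate number as a block, limma called 2 rod genes, Sag (adjusted p = 0.0338) and Gngt1 (adjusted p = 0.0297), and 2877 features in all, 1377 of them higher. That fit also called 6 cone counterparts, among them Cnga3 (limma adjusted p = 0.0122). The correlation of same-numbered replicates' deviations over all features was 0.48, but 2 pairs and the labels do not establish a pairing. Apart from the block, adjusted p in the alternatives stayed at or above 0.0552, the value of Sag without positive replicate 2. With median centring the difference was 0.00010 for Cnga1 and 0.0054 for Cngb1, a turn of sign. Leaving out 1 array at a time gave 0 to 1429 called features, 0 to 667 of them higher, 2346 to 4977 at an unadjusted p under 0.05, and 0 to 7 called cone counterparts. The same fits gave a median of 0.063 to 0.23 over the rod genes, and differences of -0.063 to 0.089 for Gnb1, -0.079 to 0.65 for Pde6b, -0.062 to 0.013 for Cnga1, -0.081 to 0.043 for Cngb1 and -0.043 to 0.17 for Slc24a1. The cause was not tested.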
